A study of Mus musculus with 9 samples.

Results

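The C-type lectin receptors of bone marrow neutrophils were examined through 8 genes, Clec7a, Clec4n, Clec4d, Clec4e, Clec5a, Clec4a2, Clec12a and Clec2d, chosen by symbol from the 7197 genes listed in the deposited table. All 8 were listed, and all 8 reached the mean of 10 normalized counts required for testing, as did 6673 genes in total. Neutrophils gated as CD45+, CD11b+ and Ly6G+ were sorted from the marrow of mice aged 2 months, and the labels assign 5 libraries to Rragc+/+ and 4 to RragcS74N/+. RragcS74N/+ mice carry 1 Rragc allele edited with CRISPR in the germ line of the mouse, so that every cell type of the animal, and not neutrophils alone, is heterozygous for the change. Rragc encodes RagC, a subunit of the Rag GTPases that signal nutrient sufficiency to mTORC1, and the mice were profiled to ask whether their neutrophils differ intrinsically from those of Rragc+/+ mice. No treatment was given. The study's text describes more RragcS74N/+ animals than the 4 libraries analysed here.

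C-type lectin receptors are surface proteins with which myeloid cells sense fungal and mycobacterial glycans and the debris of damaged cells. The activating receptors signal through immunoreceptor tyrosine-based activation motifs, either in their own tail (Clec7a, also called Dectin-1) or in an adaptor that they carry with them, and recruit the kinase Syk, which feeds the CARD9, BCL10 and MALT1 complex and NF-kB. The inhibitory receptors Clec4a2 (DCIR) and Clec12a (MICL) instead hold inhibitory motifs in their tails that recruit the phosphatases SHP-1 and SHP-2. Clec2d differs from both kinds, being known mainly as a ligand of an inhibitory receptor of natural killer cells, and was kept apart in every count of activating against inhibitory genes.

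The 8 genes lie on chromosome 6. In the RefSeq order of protein-coding genes (GRCm38, whereas the authors' files use GRCm39), Clec4n, Clec4d and Clec4e are direct neighbours and 1 gene, Clec4b2, stands between Clec4a2 and Clec4n. Clec2d, Clec12a and Clec7a belong to another cluster on the same chromosome, with 98 protein-coding genes between Clec4e and Clec2d. Clec5a lies apart from both, with 631 protein-coding genes between it and Clec4a2. The activating Clec4d and the inhibitory Clec4a2 are thus members of 1 cluster, and so are Clec7a and Clec12a.

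Windows of 300 bases that span the annotated transcript start were available from RefSeq (GRCm38.p6) for 7 of the 8 genes, all but Clec4n. Those of Clec4d, Clec5a, Clec4a2 and Clec12a are shown because these 4 transcripts had their highest values in the same libraries, as described further on. Capitals mark GAGGAA, the core recognised by the myeloid factor PU.1, and TTNNGNAA, letters typical of C/EBP factors, on either strand; the 2 matches of Clec4a2 overlap each other.
Clec4d (activating), chr6:123261857-123262156, plus strand: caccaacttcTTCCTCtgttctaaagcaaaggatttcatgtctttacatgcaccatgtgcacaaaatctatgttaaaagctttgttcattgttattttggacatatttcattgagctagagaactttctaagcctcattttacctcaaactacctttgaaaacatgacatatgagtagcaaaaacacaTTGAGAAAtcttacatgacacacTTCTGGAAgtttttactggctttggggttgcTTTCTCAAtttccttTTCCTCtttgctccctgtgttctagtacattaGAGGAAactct
Clec5a (activating), chr6:40585756-40586055, minus strand: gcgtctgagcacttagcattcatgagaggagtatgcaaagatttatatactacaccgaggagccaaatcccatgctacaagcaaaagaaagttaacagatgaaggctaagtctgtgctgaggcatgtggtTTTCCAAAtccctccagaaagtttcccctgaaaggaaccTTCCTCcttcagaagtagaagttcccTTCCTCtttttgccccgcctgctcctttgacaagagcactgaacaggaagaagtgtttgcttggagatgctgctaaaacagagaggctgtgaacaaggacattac
Clec4a2 (inhibitory), chr6:123122440-123122739, plus strand: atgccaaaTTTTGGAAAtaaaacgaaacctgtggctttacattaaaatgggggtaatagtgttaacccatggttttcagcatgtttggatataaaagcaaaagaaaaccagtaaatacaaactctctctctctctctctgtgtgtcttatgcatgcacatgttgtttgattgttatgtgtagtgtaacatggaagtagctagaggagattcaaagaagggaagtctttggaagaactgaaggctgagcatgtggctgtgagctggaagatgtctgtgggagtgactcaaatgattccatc
Clec12a (inhibitory), chr6:129349994-129350293, plus strand: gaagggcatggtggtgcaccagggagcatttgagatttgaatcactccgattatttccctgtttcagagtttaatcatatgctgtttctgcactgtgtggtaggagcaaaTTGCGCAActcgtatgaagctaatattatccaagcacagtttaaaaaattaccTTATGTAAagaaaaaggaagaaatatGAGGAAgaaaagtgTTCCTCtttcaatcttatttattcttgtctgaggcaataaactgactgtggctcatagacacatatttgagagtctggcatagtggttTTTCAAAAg
GAGGAA was present in 5 of the 7 windows, against 28.3% of all 27025 windows in the RefSeq table, and TTNNGNAA in 6 of the 7, against 40.7%. Clec7a held GAGGAA without TTNNGNAA, whereas Clec4a2 and Clec2d held TTNNGNAA without GAGGAA. The letters CACGTG, bound by TFE3 and TFEB among other factors, were found in 0 of the 7 windows and in 7.24% of all windows. TGANTCA, the AP-1 letters, were found in 2 of the 7, Clec4a2 and Clec12a, and in 7.93% of all windows. A match describes the letters of a window and not binding.

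**Figure D1:**
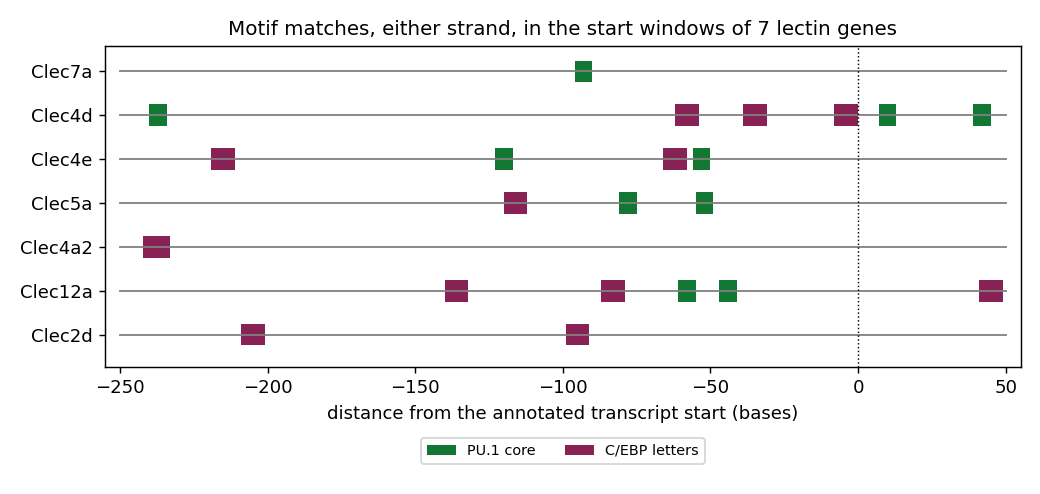
Position of the PU.1 core (green) and of the C/EBP letters (purple), on either strand, in the start windows of 7 lectin genes. The x axis is the distance from the annotated transcript start in bases, and each line is 1 gene. Clec4d carries both kinds within 60 bases of its start, and Clec7a carries a single PU.1 core.

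Gene counts were recovered from the deposited values as whole reads and totalled between 1214295 and 1973957 reads over the listed genes per library. Each normalized count given below is the number of reads of a gene divided by the authors' size factor for that library, means are given ± SD over the 5 Rragc+/+ or the 4 RragcS74N/+ libraries, and differences are given on the log2(value + 1) scale as RragcS74N/+ minus Rragc+/+. Rragc itself averaged 71.0 ± 10.3 in Rragc+/+ (SD, n = 5) and 65.8 ± 9.52 in RragcS74N/+ (SD, n = 4), and a gene-level count cannot tell the edited allele from the other. The defining neutrophil marker Ly6g was at 2639 ± 396 and 2798 ± 891, and all 10 genes of the neutrophil marker list were detected.

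No lectin gene passed the correction for multiple tests. With limma, 0 of the 8 had an adjusted p-value under 0.05 (Benjamini-Hochberg over all 6673 genes), as was the case for 0% of all genes tested, and their adjusted p-values ranged from 0.713 to 0.863. At an unadjusted p-value under 0.05 there was 1 of 8, Clec4n, against 5.81% of all genes, and by direction 0 of 8 were higher and 1 of 8 lower, against 2.01% and 3.81% of all genes; edgeR and DESeq2 on the recovered reads also gave 0 of 8 after adjustment and 1 of 8 without it, against 6.89% and 6.71% of all genes. For none of the 8 were the genotypes free of overlap, a state reached by 1.69% of all genes. By sign alone, 7 of the 8 were higher in RragcS74N/+ and 1 was lower, whereas 53.4% of all genes were higher. The median difference over the 8 was 0.24, beside 0.024 over all genes tested.

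**Figure D2:**
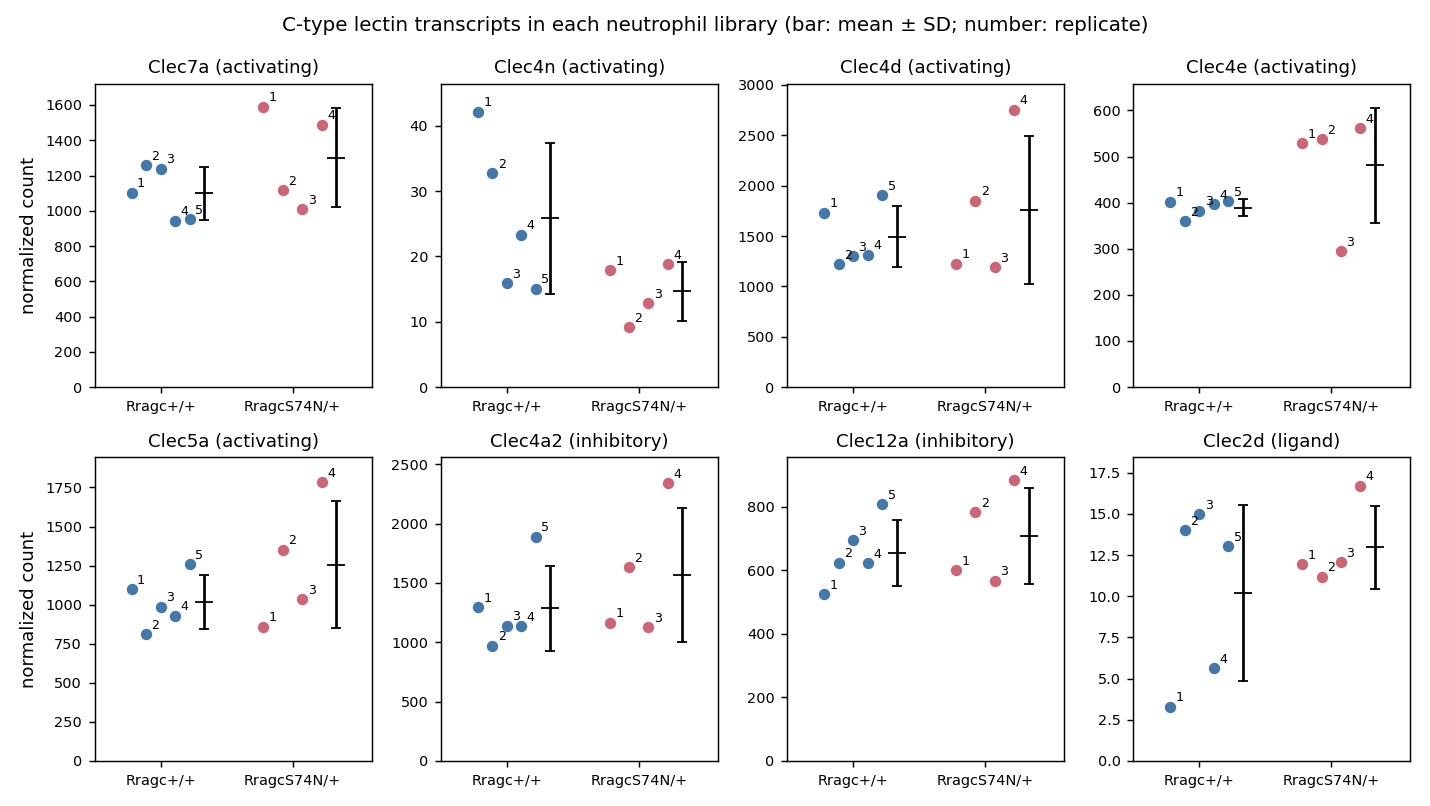
Normalized counts of the 8 lectin genes in every library, with 1 panel per gene and its role in the title. Points are libraries numbered by replicate (blue Rragc+/+, n = 5; red RragcS74N/+, n = 4), bars are mean ± SD, and every y axis starts at 0. The genotypes overlap in all 8 panels, and Clec4e shows 3 RragcS74N/+ libraries above and 1 below the 5 Rragc+/+ libraries.

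Among the activating receptors, Clec7a, the receptor of fungal beta-glucan, measured 1102, 1259.6, 1238, 944 and 952 normalized counts in the 5 Rragc+/+ libraries and 1591, 1116, 1010.0 and 1487 in the 4 RragcS74N/+ libraries. Replicates 1 and 4 of RragcS74N/+ exceeded every Rragc+/+ library, while the other two fell within the Rragc+/+ range. The means were 1099 ± 151 and 1301 ± 282, a log2 difference of 0.23 with a standard error of 0.18 (95% interval -0.16 to 0.62, limma adjusted p = 0.740). Without RragcS74N/+ replicate 1 the difference was 0.12. In linear terms the interval spans a ratio of 0.896 to 1.53.

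Clec4n encodes Dectin-2, which binds fungal mannans and pairs with the FcR gamma chain. It was the only one of the 8 to be lower in RragcS74N/+, and it was scarce, with 9 to 64 reads per library. Its normalized counts were 42.1, 32.7, 15.9, 23.3 and 15.0 in Rragc+/+ and 17.9, 9.15, 12.8 and 18.8 in RragcS74N/+. The values in replicates 2 and 3 of RragcS74N/+, lay below the whole Rragc+/+ range, whereas replicates 1 and 2 of Rragc+/+ were the highest of all. The means of 25.8 ± 11.6 and 14.7 ± 4.53 gave a log2 difference of -0.72 with a standard error of 0.33 (95% interval -1.43 to -0.0065). In limma the unadjusted p-value was 0.0482 and the adjusted p-value 0.713, and edgeR and DESeq2 both gave a log2 difference of -0.82, with unadjusted p-values of 0.0319 and 0.0338. Without Rragc+/+ replicate 1 the difference was -0.52.

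Monocytes and macrophages also carry Clec4n, so their markers were examined, although the gate on Ly6G+ cells is meant to leave these cells out. Of 12 such markers 5 were listed, and 4 of these 5 had a negative difference, with a median log2 difference of -0.44; the summed level ranged from 2501 to 3792 normalized counts in Rragc+/+ and from 2427 to 4190 in RragcS74N/+, most of it Ly6c2, which neutrophils express too. Csf1r, the receptor that defines the monocyte lineage, measured 103, 339, 189, 168 and 85.2 in Rragc+/+ and 133, 103, 99.4 and 71.1 in RragcS74N/+. Mpeg1 differed by -0.44 (limma unadjusted p = 0.0330, adjusted p = 0.713), Cd68 by -0.54 and Adgre1 by -0.29. For Csf1r and Cd68 the unadjusted p-values were 0.0719 and 0.0556 in limma, 0.0362 and 0.0296 in edgeR, and 0.0275 and 0.0274 in DESeq2. Their adjusted p-values were 0.683 in edgeR and 0.737 in DESeq2. Ccr2, F13a1, Cx3cr1, Ms4a6c, Fcgr1, Klf4 and Irf8 were not listed. The part of such cells in the Clec4n values was not tested, and fewer cells of a type cannot be told apart from less RNA per cell in these bulk libraries.

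Clec4d and Clec4e are the adjacent genes of MCL and Mincle, which associate with each other and with the FcR gamma chain and sense mycobacterial cord factor. Clec4d measured 1733, 1218, 1299, 1313 and 1905 normalized counts in Rragc+/+ and 1225, 1852, 1189 and 2756 in RragcS74N/+. RragcS74N/+ replicate 4 was the highest of all libraries and replicate 3 the lowest. The means were 1493 ± 305 and 1756 ± 733, with a log2 difference of 0.17 and a standard error of 0.25 (95% interval -0.36 to 0.70, limma adjusted p = 0.837). This sign rested on replicate 4 of RragcS74N/+, without which the difference was -0.078, and without replicate 3 it was 0.33.

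Clec4e was very even in Rragc+/+ neutrophils, at 402, 359.9, 382, 396 and 403 normalized counts, and uneven in RragcS74N/+, at 529, 538, 295 and 561. Its coefficient of variation was 4.67% in Rragc+/+ and 25.9% in RragcS74N/+. Counting error alone gives about 4.60%, averaged over all 9 libraries of both genotypes. Replicates 1, 2 and 4 of RragcS74N/+ were above every Rragc+/+ library and replicate 3 was below every one. The means of 389 ± 18.2 and 481 ± 124 differed by 0.26 with a standard error of 0.19 (95% interval -0.15 to 0.68, limma adjusted p = 0.725), and the difference was 0.48 without replicate 3 and 0.17 without replicate 4 of RragcS74N/+.

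Clec5a, or MDL-1, is carried by the adaptors DAP12 and DAP10. It measured 1099, 811, 988, 928 and 1260.3 normalized counts in Rragc+/+ and 858, 1351, 1034 and 1784 in RragcS74N/+. Replicates 2 and 4 of RragcS74N/+ were the highest libraries, and the remaining RragcS74N/+ values fell inside the Rragc+/+ range. The means were 1017 ± 171 and 1257 ± 406, a log2 difference of 0.27 with a standard error of 0.21 (95% interval -0.19 to 0.72, limma adjusted p = 0.741). The difference was 0.078 without RragcS74N/+ replicate 4 and 0.43 without replicate 1.

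The inhibitory receptor Clec4a2 measured 1293, 969.8, 1139, 1136 and 1889.9 normalized counts in Rragc+/+ and 1164, 1634, 1127 and 2342 in RragcS74N/+. Within each genotype single libraries stood out, replicate 5 among the Rragc+/+ libraries and replicate 4 among the RragcS74N/+ libraries. The means were 1286 ± 357 and 1567 ± 566, and the log2 difference was 0.26 with a standard error of 0.24 (95% interval -0.26 to 0.78, limma adjusted p = 0.753). The difference was 0.044 without RragcS74N/+ replicate 4 and 0.41 without Rragc+/+ replicate 5. Clec4a2 has close relatives in its cluster, and how reads shared with Clec4a1, Clec4a3 and Clec4b1 were counted was not examined. These 3 relatives were listed at means of at most 22.3 normalized counts, which does not bound the number of such reads.

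Clec12a, which recognises uric acid crystals and damps neutrophil activation by them, measured 524, 624, 695, 623 and 809 normalized counts in Rragc+/+ and 601, 783, 568 and 884 in RragcS74N/+. Only replicate 4 of RragcS74N/+ lay outside the Rragc+/+ range. The means were 655 ± 105 and 709 ± 150.3, with a log2 difference of 0.10 and a standard error of 0.18 (95% interval -0.29 to 0.50, limma adjusted p = 0.863). Without that replicate the difference was -0.0096, and without RragcS74N/+ replicate 3 it was 0.20.

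Clec2d transcripts were close to the lower limit of what was listed, with 5 to 18 reads per library. The normalized counts were 3.29, 14.0, 15.0, 5.63 and 13.03 in Rragc+/+ and 11.9, 11.2, 12.1 and 16.7 in RragcS74N/+. Rragc+/+ replicates 1 and 4 were below all others. The means of 10.2 ± 5.34 and 12.97 ± 2.53 gave a log2 difference of 0.48 with a standard error of 0.40 (95% interval -0.39 to 1.35, limma adjusted p = 0.741), the widest interval of the 8. Without Rragc+/+ replicate 1 the difference was 0.18.

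**Figure D3:**
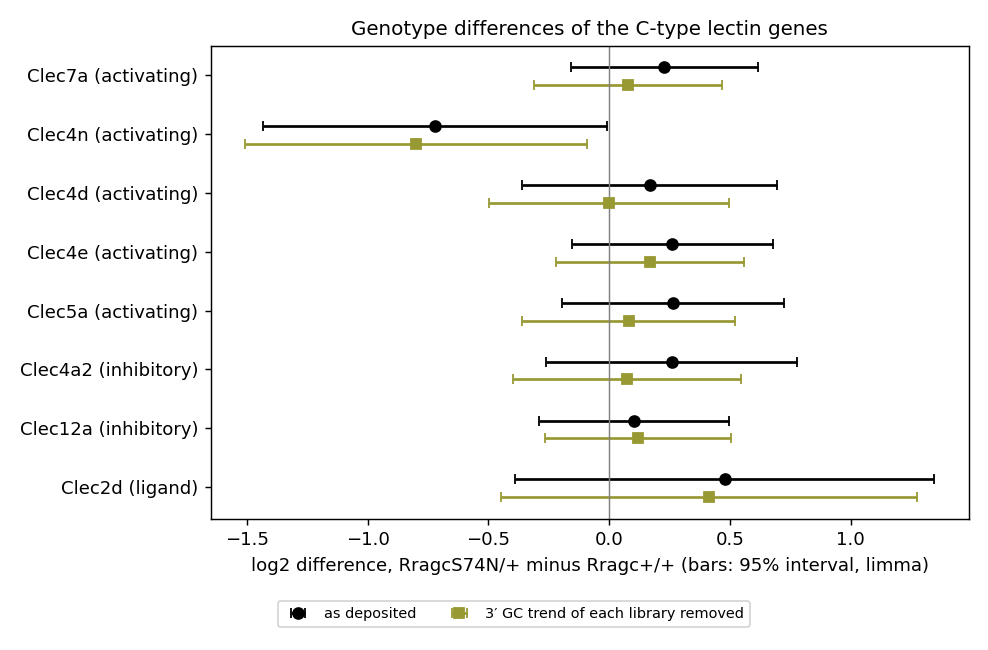
Difference between genotypes for each lectin gene, with the role in parentheses. The x axis is the log2(value + 1) difference, RragcS74N/+ minus Rragc+/+; black circles are the deposited values, olive squares those after the trend on 3′ GC was taken out of each library, and bars are 95% limma intervals. The Clec4n interval alone leaves out 0, and it ends at -0.0065 in the deposited values.

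Activating and inhibitory receptors were compared through the mean log2(value + 1) of each kind in each library, as a description without a test. The 5 activating genes averaged 8.77 ± 0.145 in Rragc+/+ and 8.81 ± 0.329 in RragcS74N/+, a difference of 0.041, and 4 of the 5 were higher and 1 lower. The 2 inhibitory genes averaged 9.82 ± 0.265 and 9.998 ± 0.397, a difference of 0.18, and both were higher. Both differences were smaller than the spread between libraries of 1 genotype, 0.242 and 0.328.

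The balance, activating minus inhibitory within a library, was -1.05 ± 0.32 in Rragc+/+ and -1.19 ± 0.19 in RragcS74N/+. The Rragc+/+ libraries ranged from -1.52 to -0.68 and held the whole RragcS74N/+ range of -1.38 to -0.92. The difference of -0.14 was again smaller than the spread of 0.274 within a genotype. With the scarce Clec4n left out, as also happens when a mean of 50 is required, the balance was -0.018 ± 0.20 and 0.032 ± 0.12, and the difference turned to 0.049. The median difference was 0.23 over the 5 activating and 0.18 over the 2 inhibitory genes.

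**Figure D4:**
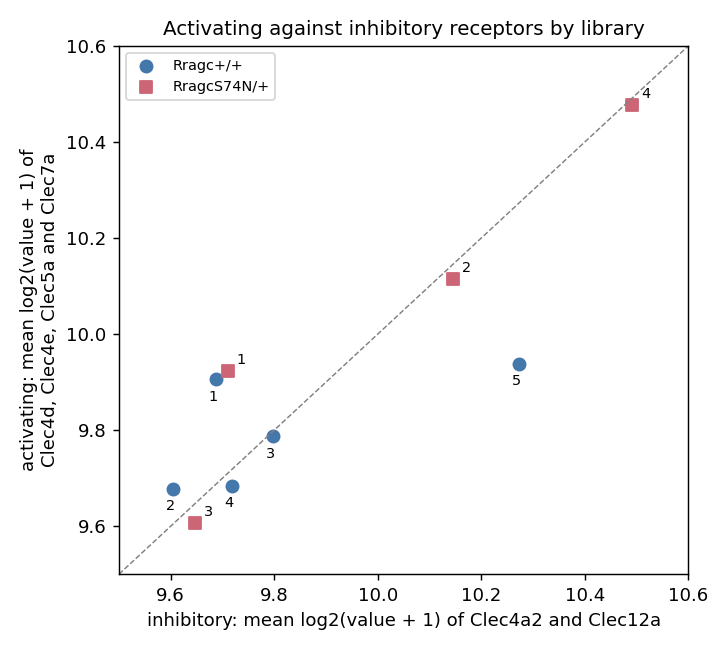
Mean log2(value + 1) of 4 activating genes (y axis) against that of the 2 inhibitory genes (x axis), with 1 point per library, numbered by replicate, and the dashed line marking equal values. Clec4n is left out. RragcS74N/+ replicates 2 and 4 (red) and Rragc+/+ replicate 5 (blue) lie at the high end of the inhibitory axis, and the genotypes overlap.

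Variation between libraries was shared by receptors of opposite role. Clec4d, Clec5a, Clec4a2 and Clec12a had the same 3 libraries on top, RragcS74N/+ replicates 2 and 4 and Rragc+/+ replicate 5, which was true of 5.99% of all genes tested and of 7.77% of those that, like these 4, averaged 50 or more. Over the 9 libraries, the log2 values of Clec4d and the inhibitory Clec4a2 had a Pearson r of 0.952 and a Spearman rho of 0.917, and r remained at 0.875 without the 2 libraries farthest from the median. For Clec5a and Clec4a2 r was 0.948 and rho 0.833, and for Clec4d and Clec5a r was 0.944 and rho 0.80. The 2 inhibitory genes were less alike, with r at 0.811 and at 0.460 without the 2 farthest libraries. Clec7a did not follow this pattern, with r at 0.129 with Clec4d, 0.0513 with Clec5a and 0.0937 with Clec4a2. These are descriptions of 28 pairs of genes over 9 libraries that share depth, size factors and base composition trends.

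Likeness over the 9 libraries was examined among the 3475 genes that averaged 50 or more normalized counts, which leaves out Clec4n and Clec2d. The transcripts most like each of the 6 remaining lectin genes were of varied function. Clec4d was most like Vmp1 and Mettl9 (r of 0.968 and 0.967), Clec5a like Psmc6 and Rps27a (0.981 and 0.974), and Clec4a2 like the cytosolic and mitochondrial ribosomal protein genes Rps15a and Mrpl33 (0.984 and 0.980). Clec12a was most like Ddx52 and Rpl21 (0.958 and 0.944). Clec4e was most like Lilr4b and Stk17b (0.942 and 0.881), and Clec7a like Milr1, an inhibitory immunoglobulin-like receptor known from mast cells, and Hacd4 (0.911 and 0.905).

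Other measures moved with the shared pattern. Markers of eosinophils and basophils, of which 5 of 9 were listed, summed to 196, 113, 149, 168 and 426 normalized counts in Rragc+/+. They summed to 122, 460.5, 206 and 583 in RragcS74N/+, and so were highest in the same 3 libraries. The summed neutrophil markers were highest there too, at 178162 in Rragc+/+ replicate 5 and 181860 and 194261 in RragcS74N/+ replicates 2 and 4. So was the sum of the list for immature neutrophils, at 50703, 46570 and 54392, but not that for mature neutrophils. By mean log2 value, neither the neutrophil markers nor the immature list had these 3 libraries on top. Of the 5, Prg2, Epx, Ear1 and Ear2 had a positive difference between genotypes, and Siglecf a negative one of -0.14. Siglecf did not follow the sum of its list, with its lowest Rragc+/+ value, 21.1, in replicate 5 and its lowest RragcS74N/+ value, 18.8, in replicate 4. Its highest RragcS74N/+ value, 31.5, was in replicate 2. Prg3, Mcpt8, Fcer1a and Cpa3 were not listed. Base composition was examined too. The last 500 bases of Clec4a2, Clec5a and Clec4d have a GC content of 32.0%, 32.2% and 34.0%, among the lower values of a table with a median of 43%, and Clec12a has 46.0%. Genes of low 3′ GC content stood higher in Rragc+/+ replicate 5 and in RragcS74N/+ replicates 2 and 4 (Spearman rho across genes, which are not independent, of -0.246, -0.221 and -0.235), and most of all in RragcS74N/+ replicate 1 (-0.440). In that last library, however, Clec4d, Clec5a and Clec4a2 were not high, at 1225, 858 and 1164 normalized counts. The Ly6G+ gate is meant to leave out eosinophils and basophils as well. Trends on transcript length differed between libraries as well. Their Spearman rho was -0.178 in Rragc+/+ replicate 5, -0.138 and -0.272 in RragcS74N/+ replicates 2 and 4, and 0.577 in RragcS74N/+ replicate 1. In the remaining libraries it lay between -0.136 and 0.182. The part of eosinophils and basophils, of base composition or of transcript length in the shared pattern was not tested beyond the removal of the GC or the length trend. On 3′ GC content, rho was 0.101, 0.392, 0.280 and 0.203 in Rragc+/+ replicates 1 to 4 and -0.0539 in RragcS74N/+ replicate 3. The GC trend thus went largely with genotype, and its removal cannot be told apart from removing a genotype difference. With the 3′ GC trend removed in every library, the difference between genotypes was -0.0014 for Clec4d, 0.08 for Clec5a, 0.07 for Clec4a2 and 0.08 for Clec7a. It was 0.17 for Clec4e, 0.12 for Clec12a, -0.80 for Clec4n and 0.41 for Clec2d. Over all 21 alternatives, removal of the length trend among them, the difference lay between -0.078 and 0.33 for Clec4d. For Clec5a it lay between 0.078 and 0.43, and for Clec4a2 between 0.044 and 0.41.

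**Figure D5:**
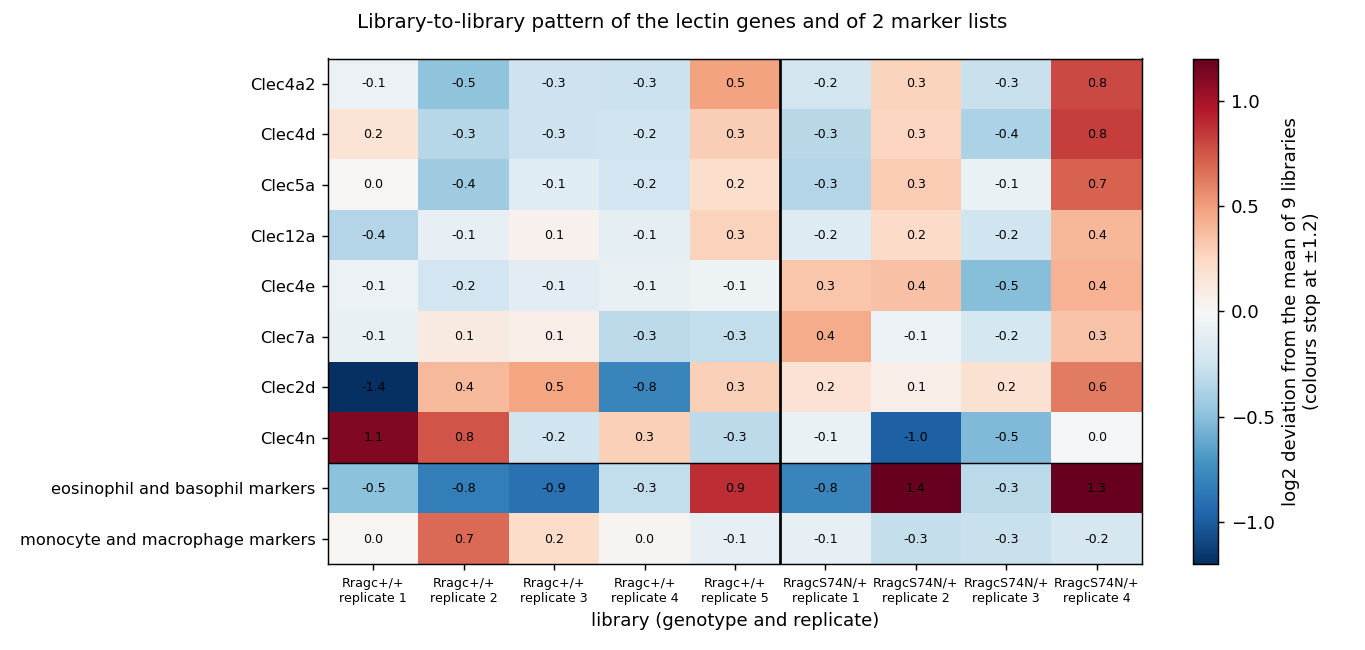
Deviation of each library (columns, by genotype and replicate) from the mean of the 9 libraries, in log2 units, for the 8 lectin genes and for the mean of 2 marker lists. Red is higher and blue lower. Clec4a2, Clec4d, Clec5a, Clec12a and the eosinophil and basophil markers share their 3 highest libraries, and Clec7a does not.

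The spread within a genotype was also compared. The SD of the log2 values was larger in RragcS74N/+ than in Rragc+/+ for 6 of the 8 genes, all but Clec4n and Clec2d, against 38.1% of all genes tested. RragcS74N/+ replicate 4 held the highest value of 5 of the 6 genes that averaged 50 or more. Without it the SD was larger in RragcS74N/+ for 5 of the 8, against 32.6% of all genes.

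The adaptors and kinases that the activating receptors depend on were examined next. Of 36 genes fixed for this pathway 31 were listed and 30 tested. In limma 0 passed with adjustment and 0 without it, against 0% and 5.81% of all genes. Of those tested, 13 were higher and 17 lower. Their median log2 difference was -0.047, which lay between -0.081 and 0.0064 when single libraries were left out. Fcer1g, the FcR gamma chain of Dectin-2, MCL and Mincle, measured 2305 ± 179 and 2027 ± 349 normalized counts, a difference of -0.20 (limma adjusted p = 0.741). Tyrobp, which encodes DAP12, measured 5513 ± 606 and 5633 ± 1556, and Hcst, which encodes DAP10, 852 ± 104 and 743 ± 187. The difference of Hcst was -0.23.

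Downstream, Syk measured 176 ± 26.1 and 166 ± 13.5 normalized counts, and Prkcd, the kinase that phosphorylates CARD9, 585 ± 61.6 and 649 ± 62.3. Bcl10 was at 331 ± 51.8 and 310 ± 45.7, and Malt1 at 30.0 ± 8.92 and 38.1 ± 13.8. Card9, Src, Fyn, Plcg1 and Nfatc2 were not listed. The smallest unadjusted p-values of the list were those of Plcg2, with a difference of -0.32 (limma adjusted p = 0.713), and of Chuk, with 0.52 (limma adjusted p = 0.714).

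Genes that restrain the pathway followed. Of 12 such genes 9 were listed, and in limma 0 passed with adjustment and 0 without it, against 0% and 5.81% of all genes. Of the 9, 4 were higher and 5 lower, and the median was -0.18, or -0.063 without RragcS74N/+ replicate 1. Ptpn6, which encodes the phosphatase SHP-1 recruited by Clec4a2 and Clec12a, measured 537 ± 103 and 468 ± 47.0 normalized counts, a difference of -0.18. Ptpn11, which encodes SHP-2, differed by 0.03 and the lipid phosphatase gene Inpp5d by -0.18. Cbl, a ubiquitin ligase that directs Syk to degradation, ranged from 323 to 398 in Rragc+/+ and from 404 to 456 in RragcS74N/+. Its genotypes thus did not overlap, as was the case for 1.69% of all genes, with a difference of 0.21 (limma adjusted p = 0.721). Cyld, a deubiquitinase, differed by 0.26.

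Of 16 transcripts known to be induced through Dectin-1, Dectin-2 or Mincle, 7 were listed and 5 tested. In limma 0 passed with adjustment and 0 without it, against 0% and 5.81% of all genes. Of those tested, 2 were higher and 3 lower, with a median of -0.055, or between -0.10 and -0.010 with single libraries left out. Tnf differed by -0.27 and Il1rn, the antagonist of the interleukin-1 receptor, by -0.20. Among 38 other genes with C-type lectin or related domains, 11 were listed and 8 tested. Here 1 of the 8 passed without adjustment in limma, beside 5.81% of all genes, namely Cd93, which was lower by -1.01 (limma adjusted p = 0.713) at means of 13.5 and 6.70 normalized counts. Its unadjusted p-value was 0.0464 in limma, but 0.0558 in edgeR and 0.0569 in DESeq2, so that this call was lost in both. The median of the list was -0.040 and had no settled sign, at 0.0076 in DESeq2 and at 0.088 without Rragc+/+ replicate 2. Klra2, an inhibitory receptor of the Ly49 family, differed by 0.38.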

How the data were processed

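Neutrophil RNA of 9 mice was profiled by 3′-end sequencing with molecular identifiers. Reads were aligned by the authors to GRCm39 (TopHat2) and counted by gene and strand (HTSeq 0.6.1), and they deposited a signal, the gene counts divided by 1 size factor per library. Whether identifiers were collapsed is not given in the sources used here, so counting error may understate the noise. All values were whole multiples of 1 read (100% within 0.1), from which reads were recovered.

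Values were analysed as log2(value + 1), which understates changes of scarce genes. Genes averaging 10 or more were put through limma 3.58.1 (R 4.3.3, trended moderation, genotype alone, Benjamini-Hochberg threshold 0.05), after a test on simulated data. edgeR 4.0.16 and DESeq2 1.42.0 on the recovered reads were alternatives, beside the pseudocount, filter, scaling, moderation, array weights, roles and each library left out. P-values set the difference between genotypes against the spread between these libraries within a genotype. Libraries of 1 genotype differed beyond sampling noise (lowest chi-square 5.70 per degree of freedom among 16 pairs).

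The members and lists were chosen with earlier results of these data known. Named besides the members are the pathway's main genes, the 2 smallest p-values of each list, the 2 most alike transcripts of each member, and marker genes. Mpeg1, Csf1r, Ly6c2, Cd68, Adgre1, the listed eosinophil and basophil markers and the neighbouring lectin genes were named after their values were seen. Leaving out Clec4n and removing trends on 3′ GC content or transcript length (GENCODE, GRCm38, matched for 6556 of 6673 genes) were chosen after seeing the data.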

Additional observations from a re-analysis of the deposited data

Results flagged for a closer look

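Of 86 groups of 4 or 5 libraries examined for a library far from the rest, 3 were picked out, where chance gives about 4.3. Clec4e in RragcS74N/+ replicate 3 lay apart from the other RragcS74N/+ libraries, by 0.908 of the range of that group. The mean log2 value of the inhibitory receptors in Rragc+/+ replicate 5 stood apart from the other Rragc+/+ libraries by 0.711 of their range. Hcst, which encodes the adaptor DAP10, was lowest in RragcS74N/+ replicate 1, separated by 0.888 of the range from its nearest neighbour.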

How the results depend on the processing

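No paired analysis was possible because no replicate number is found in the labels. Under every alternative run, 0 of the 8 lectin genes passed the adjusted threshold. Without RragcS74N/+ replicate 4, Clec4d was at -0.078 (range over libraries left out -0.078 to 0.33) and Clec12a at -0.0096 (-0.0096 to 0.20), and with the 3′ GC trend removed Clec4d was at -0.0014, each with its sign turned. That removal also moved the median of the signalling list to 0.036 and of the restraint list to -0.00031; the cause was not tested. Clec4n was lower in all 20 alternatives in which it was tested and kept an unadjusted p under 0.05 in 14 of them, with limma, edgeR or DESeq2 adjusted p-values from 0.326 to 0.994; it and Clec2d were not tested at a mean of at least 50. The count of all genes at an unadjusted p under 0.05 in limma, 388, was 191 at a mean of at least 50, 769 with array weights, and 201 (without Rragc+/+ replicate 2) to 907 (without Rragc+/+ replicate 5) with a library left out. When single libraries were left out, the activating minus inhibitory difference ranged from -0.26 (without Rragc+/+ replicate 5) to -0.047 (without Rragc+/+ replicate 1), the activating mean from -0.10 (without RragcS74N/+ replicate 4) to 0.16 (without RragcS74N/+ replicate 3), and the inhibitory mean from 0.017 (without RragcS74N/+ replicate 4) to 0.30 (without RragcS74N/+ replicate 3). At a mean of at least 50, which drops Clec4n, the activating mean was 0.23 and the activating minus inhibitory difference turned to 0.049, and with medians over members that difference was 0.047. The restraint list was at -0.070 at that filter and at -0.072 with array weights, and the other lectin-domain list turned to 0.0058 at that filter. At 5 to 64 reads per library, depth limits Clec2d and Clec4n most.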

Other observations

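Genes of neutrophil maturation were compared beside the receptors. All 12 genes of the list for immature neutrophils, such as the granule genes Ltf and Camp, and all 12 for mature neutrophils, such as Mmp8 and Cxcr2, were listed. In limma 0 of either list had an unadjusted p under 0.05, against 5.81% of all genes. The median log2 differences were -0.10 and -0.07; the first turned to 0.020 without RragcS74N/+ replicate 1 and the second to 0.016 with the 3′ GC trend removed. Of the markers of other cells, 1 of 10 for dendritic cells (Itgax), 1 of 8 for B cells (Ighm), 0 of 8 for T and NK cells and 0 of 4 for platelets were listed. Erythroid genes, of which 6 of 7 were listed, summed to between 1090 and 5585 normalized counts in Rragc+/+ and between 378 and 2147 in RragcS74N/+. In limma 5 of them were lower at an unadjusted p under 0.05, against 3.81% of all genes. After adjustment 0 passed, with a lowest limma adjusted p of 0.713.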
